A study of Homo sapiens with 4 samples.

Results

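The enzymes that make serine and pass its carbon into the folate cycle were examined in adherent cells and spheroids labelled HCT116 and LOVO. The study describes both as human colorectal cancer lines. The set holds 10 of the 58735 genes in the deposited table: PHGDH, PSAT1, PSPH, SHMT1, SHMT2, MTHFD1, MTHFD1L, MTHFD2, MTHFD2L and ALDH1L2. The genes were picked by name as a pathway, with the differences between spheroids and adherent cells in these libraries already known. Those differences are therefore given as a description and carry no test. All 10 were found, and 9 reached a mean of at least 1 FPKM over the 4 libraries, ALDH1L2 being the exception at a mean of 0.468. FPKM scales the fragments of a gene to its length in kilobases and to the size of the library. The length used counts all annotated exonic bases of a gene, such as 2188 for PSAT1 and 9217 for PHGDH. It can exceed the length of the mRNA that is expressed. Levels, ranks, sums and shares across genes therefore depend on these lengths, whereas ratios of the same gene between libraries do not.

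RNA-seq was performed on 1 library per condition, with HCT116 and LOVO each grown adherent and as spheroids, all of wild-type genotype per the labels. The adherent cells grew in RPMI-1640 with serum and without treatment. The spheroids formed in low-attachment dishes in serum-free DMEM/F12 with B27, N2, bFGF and EGF, and with oxaliplatin, a platinum drug, at 1 μg/ml in the study's text, whereas the labels give 1 mg/ml and no drug name. Growth form, medium and drug changed together and cannot be told apart. Since there was 1 library per condition, no value below has a replicate error, and differences between cultures were not measured.

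The reads on genes ranged from 15483569 to 20429147 per library. Reads of mitochondrial genes took 6.77% of the reads in adherent HCT116 and 11.1% in HCT116 spheroids, against 3.65% and 3.97% in LOVO. Of 8 epithelial markers, 6 reached 1 FPKM in adherent HCT116, 7 in HCT116 spheroids, 3 in adherent LOVO and 4 in LOVO spheroids. In HCT116, CDH1, which encodes E-cadherin, stood at 31.1 FPKM in both libraries, but VIL1 was at 0.0425 and 0.0946. KRT20 stood at 0.930 in adherent HCT116 and 7.45 in HCT116 spheroids. In the libraries labelled LOVO, the keratins KRT8 and KRT18 stood between 81.6 and 189 FPKM. KRT19 stood at 14.9 and 4.85 in adherent cells and spheroids, and KRT20 at 0.0302 and 0.0538. CDH1 was at 0.117 and 0.00805 FPKM and EPCAM at 0.930 and 1.50. The intestinal factor CDX2 and VIL1 were listed at 0 in both LOVO libraries. The summed FPKM of the 8 epithelial markers was 1754 in adherent HCT116, 1288 in HCT116 spheroids, 327 in adherent LOVO and 187 in LOVO spheroids. The 4 fibroblast markers summed to 5.59, 15.7, 21.8 and 17.2 in the same order, with DCN at 10.4 and 9.97 in LOVO and listed at 0 in HCT116. The 4 leukocyte markers summed to between 0 and 0.891, and the 3 endothelial markers to between 0.254 and 7.84, the last in LOVO spheroids mostly through PECAM1. The endothelial CDH5 stood at 1.05 and 1.42 in adherent cells and spheroids of LOVO and at 0.00807 and 0.0294 in those of HCT116. In the libraries labelled LOVO, low CDH1, EPCAM and CDX2 beside DCN depart from the epithelial marker list, whereas KRT8 and KRT18 do not. The identity of these cells is thus in doubt and was not tested, and LOVO stands below for the cells so labelled. The part of these markers and of the mitochondrial reads in the results below was not tested.

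Serine is made from the glycolytic intermediate 3-phosphoglycerate by PHGDH, PSAT1 and PSPH in turn. SHMT1 in the cytosol and SHMT2 in mitochondria move a carbon unit from serine to tetrahydrofolate and leave glycine. In mitochondria MTHFD2 or MTHFD2L oxidise this unit, MTHFD1L releases it as formate, and ALDH1L2 can burn it to carbon dioxide while making NADPH. In the cytosol MTHFD1 takes the formate back up for the synthesis of purines and thymidylate. Many of these genes are known targets of ATF4, the transcription factor of the amino acid stress response, and proliferating tumour cells often express them strongly.

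The 10 genes lie on 9 chromosomes of GRCh38, and no pair of them shared a stretch of 50 bases in the GENCODE 29 transcripts. PHGDH (ENSG00000092621) lies on the plus strand of chromosome 1 from 119648411 to 119744226, with 34 annotated transcripts. PSAT1 (ENSG00000135069) lies on the plus strand of chromosome 9 from 78297143 to 78330093, with 2 transcripts that share 1 start. PSPH (ENSG00000146733) lies on the minus strand of chromosome 7 from 56011051 to 56051604. SHMT2 (ENSG00000182199) and ALDH1L2 (ENSG00000136010) both lie on chromosome 12, from 57229327 to 57234935 on the plus strand and from 105019784 to 105084577 on the minus strand. MTHFD2 (ENSG00000065911) lies on the plus strand of chromosome 2 from 74198562 to 74217565, and MTHFD2L (ENSG00000163738) on the plus strand of chromosome 4 from 74114174 to 74303099. MTHFD1L (ENSG00000120254) lies on the plus strand of chromosome 6 from 150865549 to 151101887. SHMT1 (ENSG00000176974) lies on the minus strand of chromosome 17 from 18327860 to 18363563, and MTHFD1 (ENSG00000100714) on the plus strand of chromosome 14 from 64388031 to 64463457.

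Neighbouring and copied sequence touched some of these rows. Of the exonic bases of MTHFD2, 33.2% also belong to exons of SLC4A5 or AC006030.1 on the opposite strand, and neither gene exceeded 0.267 FPKM in a library. SMCR8, on the opposite strand, covers 196 exonic bases of SHMT1 and stood at 5.24 and 6.19 FPKM in adherent cells and spheroids of HCT116 and at 9.34 and 11.1 in those of LOVO, in the last case above SHMT1 itself. AL122035.1, an antisense gene, covers 101 exonic bases of MTHFD1 and stood at 1.87 and 2.81 FPKM in HCT116 and at 2.13 and 4.88 in LOVO. AL122035.2, also antisense, covers 756 exonic bases of MTHFD1. It stood at 0.813 and 0.732 FPKM in HCT116 and at 1.28 and 1.49 in LOVO. ZBTB25, on the opposite strand, covers 178 and stood at 1.52 and 2.38 in HCT116 and at 1.92 and 2.95 in LOVO. All but AL122035.2 in HCT116 were higher in spheroids. The part of these genes in the values of SHMT1 and MTHFD1 was not tested. The share of overlapped exonic bases was 11.0% for MTHFD1, 9.51% for SHMT2 and at most 3.69% for the other members. The strand setting of the counting is not given in the sources used here, so reads of such partners cannot be told apart. Of 14 pseudogene rows named after a member, 9 had 0 reads in each library, and PSPHP1 was the only row above 11 reads. PSPHP1 shares 73 windows of 50 bases with PSPH and held 112, 113, 251 and 200 reads in adherent HCT116, HCT116 spheroids, adherent LOVO and LOVO spheroids. With the reads of PSPH and PSPHP1 added up, the log2 ratio of spheroid to adherent was -0.63 in HCT116 and -2.95 in LOVO, against -0.83 and -3.46 for PSPH alone.

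Promoter sequence was available in RefSeq (GRCh38.p14) for 7 of the 10 genes, in 11 windows of 250 bases before a start site. Since most members were lower together in spheroids, these windows were searched on both strands for 3 motifs. These were TGATGNAA, the core of the amino acid response element to which ATF4 binds, and the E-box CACGTG. The last was TGANNNNGC, a loose form of the core of the antioxidant response element. TGATGNAA was found at 1 place, in MTHFD1L, where 2 of the 11 windows overlap and hold the same letters, against 3.14% of all 35116 windows. CACGTG was found in 3 of the 11 windows, of MTHFD1L and MTHFD1, against 6.34% of all windows, and the pair of MTHFD1L windows holds the same letters. TGANNNNGC was found in 4 of the 11 windows, a share near the 35.2% of all windows, and none of its matches overlaps a match of the other motifs. The window of PSAT1, the member with the highest FPKM in each library, is shown in full because it has a single annotated start. It holds none of the 3 motifs. The other stretches show the matches, in capitals, and all are written 5′ to 3′ on the plus strand.
PSAT1, chr9:78296875-78297124: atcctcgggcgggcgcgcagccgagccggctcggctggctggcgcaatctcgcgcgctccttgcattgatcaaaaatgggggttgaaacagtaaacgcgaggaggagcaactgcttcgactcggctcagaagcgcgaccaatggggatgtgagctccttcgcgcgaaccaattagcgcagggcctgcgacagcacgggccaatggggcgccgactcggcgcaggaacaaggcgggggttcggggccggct
MTHFD1L, TGATGNAA, chr6:150866346-150866375: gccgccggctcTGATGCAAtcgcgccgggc
MTHFD1L, CACGTG, chr6:150866321-150866348: acgcccggctcCACGTGcgcagccggcc
MTHFD1, CACGTG, chr14:64388327-64388352: cagtccctaagCACGTGggttgggtt
The stretch of MTHFD1 lies within bases that GENCODE 29 annotates as exonic in MTHFD1. The TGATGCAA of MTHFD1L lies 129 to 122 bases before the start of one of these windows and 90 to 83 bases before the start of the other. These matches are descriptions of the letters only, and binding was not measured.

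In both lines, spheroids held less of most of these mRNAs than adherent cells did. Of the 9 genes compared, 8 were lower in HCT116 spheroids and 8 in LOVO spheroids, where 53.4% and 53.5% of all 14429 genes compared were lower. The 8 genes were the same in both lines, and MTHFD2L was the gene that was higher. The share of all genes that were lower in both lines was not counted. On the log2(FPKM + 1) scale, which understates changes of low genes, the median difference of the 9 genes was -0.83 in HCT116 and -1.58 in LOVO, against -0.03 and -0.06 over all genes compared. A difference below -2 was found for 1 member in HCT116 (0.506% of all genes), 4 in LOVO (0.943%) and 1 in both lines (0.0416%). The study's methods used this size for log fold changes from edgeR, together with a p-value cutoff that was not applied here. At -1, the counts were 4 in HCT116 (3.33% of all genes), 7 in LOVO (7.85%) and 4 in both lines (0.88%), namely PSAT1, PHGDH, MTHFD2 and SHMT2. PSAT1 in HCT116 at -2.01 and MTHFD2 in LOVO, beyond -2 by less than 0.01, stood just past the larger threshold, and the next members were MTHFD2 at -1.74 in HCT116 and MTHFD1L at -1.58 in LOVO. With TMM-style scaling and with centring on the median of all genes, no member was below -2 in HCT116 or in both lines, and 3 were in LOVO, as also with TPM. With 1 library per condition these counts cannot be set against replicate error. In bulk RNA, fewer cells that express a gene and less RNA per cell cannot be told apart.

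**Figure D1:**
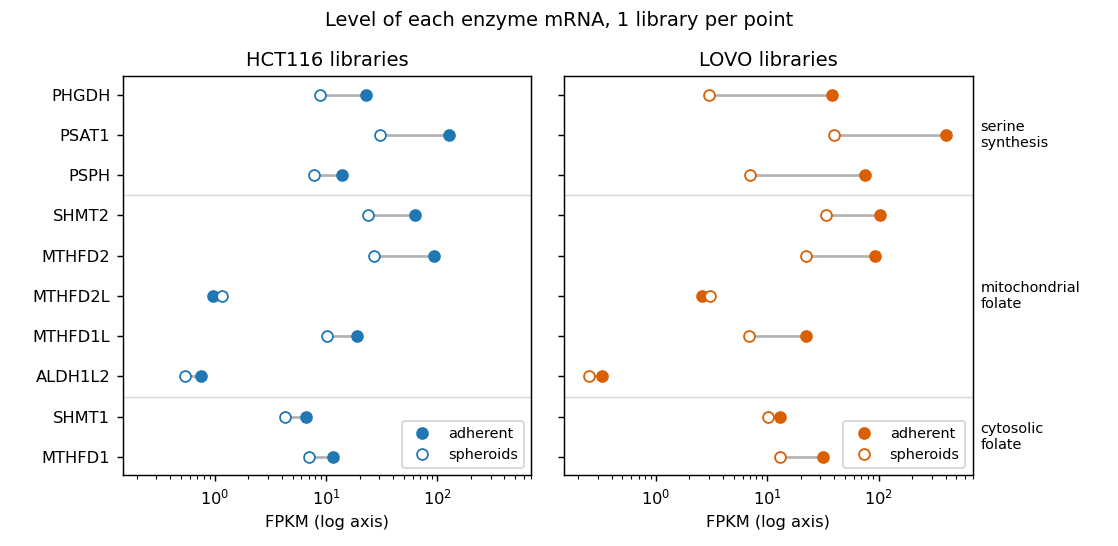
FPKM of each enzyme on a log axis in adherent cells (filled points) and spheroids (open points) of HCT116 and LOVO, with 1 library per point and a line joining the libraries of a cell line. PSAT1 has the highest FPKM of the members in each library, from 30.4 to 404. MTHFD2L is the only member with its open point to the right in both panels.

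The enzymes of serine synthesis differed most in LOVO. PSAT1, the aminotransferase of the second step, stood at 126 FPKM in adherent HCT116 and 30.4 in HCT116 spheroids, from 5616 and 1118 reads. It stood at 404 FPKM in adherent LOVO and 39.7 in LOVO spheroids, from 15859 and 1746 reads. The level in spheroids was thus 4.14 times lower in HCT116 and 10.2 times lower in LOVO, and both spheroid libraries lay below both adherent libraries. The log2 ratio without a pseudocount was -2.05 in HCT116, and the 95% counting interval (exact, Clopper-Pearson) ran from -2.14 to -1.96. In LOVO it was -3.35, with an interval from -3.42 to -3.28. These intervals compare 2 libraries and cover counting error only. Of all genes compared, 71 had a lower difference on the log2(FPKM + 1) scale than PSAT1 in HCT116, and 18 in LOVO. PSAT1 was the highest member in each library in FPKM. In reads, which are not scaled to length, it was so only in adherent LOVO. MTHFD2 had 9196 and 2204 reads in adherent cells and spheroids of HCT116, and SHMT2 had 3315 in LOVO spheroids.

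PHGDH, the dehydrogenase of the first step, stood at 23.0 FPKM in adherent HCT116 and 8.91 in HCT116 spheroids. It stood at 38.0 FPKM in adherent LOVO and 2.998 in LOVO spheroids, the lowest of its 4 values. Its log2 ratio was -1.37 in HCT116 (interval -1.46 to -1.28) and -3.66 in LOVO (interval -3.79 to -3.54), the largest difference of any member in either line. PHGDH was the member with the fifth highest level in adherent LOVO and the ninth in LOVO spheroids, where MTHFD2L at 3.06 FPKM stood just above it.

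PSPH, the phosphatase of the last step, stood at 13.8 FPKM in adherent HCT116 and 7.78 in HCT116 spheroids. In LOVO it stood at 76.2 FPKM in adherent cells and 6.95 in spheroids. The adherent LOVO library stood apart, 5.53 times above adherent HCT116, while the spheroid libraries of the lines were close, with a log2 ratio of LOVO to HCT116 of -0.16 (interval -0.37 to 0.05). The log2 ratio of spheroid to adherent was -0.83 in HCT116 (interval -1.01 to -0.64) and -3.46 in LOVO (interval -3.61 to -3.30).

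The mitochondrial enzymes SHMT2 and MTHFD2 differed by closer amounts in the 2 lines. SHMT2 stood at 62.8 FPKM in adherent HCT116, 23.6 in HCT116 spheroids, 104 in adherent LOVO and 34.1 in LOVO spheroids. It was 2.66 times lower in HCT116 spheroids and 3.05 times lower in LOVO spheroids. MTHFD2, the dehydrogenase and cyclohydrolase of the mitochondrial cycle, stood at 92.6 FPKM in adherent HCT116, 26.9 in HCT116 spheroids, 92.3 in adherent LOVO and 22.3 in LOVO spheroids. It was 3.44 times lower in HCT116 spheroids and 4.14 times lower in LOVO spheroids. The adherent libraries of the lines could not be told apart for MTHFD2 at this depth, with a log2 ratio of LOVO to HCT116 of -0.00 (interval -0.05 to 0.04). For both genes the spheroid libraries lay below both adherent libraries.

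MTHFD1L, the mitochondrial formyltetrahydrofolate synthetase, stood at 18.8 FPKM in adherent HCT116, 10.2 in HCT116 spheroids, 22.4 in adherent LOVO and 6.79 in LOVO spheroids. It was 1.85 times lower in HCT116 spheroids and 3.29 times lower in LOVO spheroids. ALDH1L2 was barely detected, at 0.756 and 0.539 FPKM in adherent cells and spheroids of HCT116 and at 0.328 and 0.251 in those of LOVO, from 131, 77, 50 and 43 reads. Its log2 ratio was -0.49 in HCT116 (interval -0.91 to -0.07) and -0.38 in LOVO, where the interval from -1.01 to 0.23 includes 0, so that a difference was not detectable there.

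MTHFD2L, the isoenzyme of MTHFD2, was the member that did not share the pattern. It stood at 0.964 FPKM in adherent HCT116 and 1.17 in HCT116 spheroids, with 193 reads in each library. It stood at 2.61 FPKM in adherent LOVO and 3.06 in LOVO spheroids. The log2 ratio was 0.28 in HCT116 (interval -0.02 to 0.57) and 0.23 in LOVO (interval 0.05 to 0.41). Both LOVO libraries lay above both HCT116 libraries for this gene.

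The cytosolic pair differed less in sum than the other groups of enzymes, by 1.61 times in HCT116 and 1.94 times in LOVO, although MTHFD1 differed more than the mitochondrial ALDH1L2 and MTHFD2L. SHMT1 stood at 6.55 FPKM in adherent HCT116, 4.25 in HCT116 spheroids, 13.0 in adherent LOVO and 10.1 in LOVO spheroids. Its log2 ratio was -0.62 in HCT116 (interval -0.78 to -0.47) and -0.37 in LOVO (interval -0.47 to -0.27). SHMT1 was the lower member with the smallest difference among the genes compared in either line. MTHFD1, which joins the dehydrogenase, cyclohydrolase and synthetase steps in a single cytosolic protein, stood at 11.6 FPKM in adherent HCT116 and 7.03 in HCT116 spheroids. It stood at 31.7 FPKM in adherent LOVO and 13.0 in LOVO spheroids, which is 2.44 times lower, against 1.64 times lower in HCT116.

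**Figure D2:**
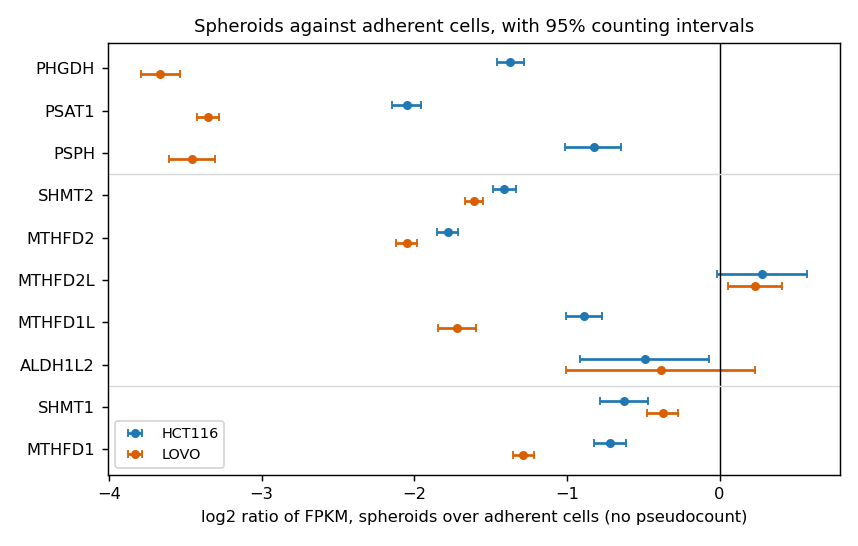
Log2 ratio of FPKM in spheroids over adherent cells for each enzyme, without a pseudocount, in HCT116 and LOVO, with bars for 95% exact counting intervals that cover counting error between 2 libraries only. PHGDH, PSAT1 and PSPH lie between -3.66 and -3.35 in LOVO and between -2.05 and -0.83 in HCT116, and MTHFD2L lies to the right of 0 in both.

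Of the 9 genes compared, 7 had a log2 ratio whose counting interval in LOVO lay wholly below that in HCT116, and none lay wholly above. Over all 14429 genes compared, 28.3% lay wholly below and 25.3% wholly above. The gap was widest for PSPH, whose log2 ratio was lower in LOVO by 2.63, and for PHGDH, where it was lower by 2.29. For PSAT1 the gap was -1.30, and for SHMT2 and MTHFD2 it was -0.20 and -0.27. The intervals overlapped for SHMT1, MTHFD2L and ALDH1L2. Whether the lines differ beyond variation between cultures could not be tested with 1 library per condition.

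The adherent libraries of the lines were also compared, which shares libraries with the comparisons above. For 8 of the 9 genes the counting interval of the log2 ratio of adherent LOVO to adherent HCT116 lay above 0, against 44.9% of all genes compared, and for none below 0, against 38.2%. The largest fold differences were 5.53 for PSPH, 3.21 for PSAT1, 2.74 for MTHFD1 and 2.70 for MTHFD2L. ALDH1L2, which did not pass the filter, was 2.31 times lower in adherent LOVO. Over all genes compared, the median difference on the log2(FPKM + 1) scale between the adherent libraries was 0.07. Between the spheroid libraries, the interval lay above 0 for 5 of the 9 genes, against 42.8% of all genes, and below 0 for 3, against 39.5%. PHGDH was 2.97 times lower in LOVO spheroids than in HCT116 spheroids although it was 1.65 times higher in adherent LOVO.

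Summed over the 10 genes, FPKM was 357 in adherent HCT116, 121 in HCT116 spheroids, 785 in adherent LOVO and 139 in LOVO spheroids. The sum was thus 2.95 times lower in HCT116 spheroids and 5.64 times lower in LOVO spheroids. The members took 0.154% of the reads in adherent HCT116 and 0.0629% in HCT116 spheroids, against 0.266% and 0.0704% in LOVO. The 3 genes of serine synthesis summed to 163 and 47.1 FPKM in HCT116 and to 518 and 49.6 in LOVO. The spheroid sums of the lines were closer to each other than the adherent sums. The 5 mitochondrial enzymes summed to 176 and 62.5 FPKM in HCT116 and to 221 and 66.5 in LOVO. The cytosolic pair summed to 18.1 and 11.3 in HCT116 and to 44.8 and 23.1 in LOVO, and its share of all 10 genes was larger in spheroids, at 9.34% against 5.08% in HCT116 and 16.6% against 5.70% in LOVO.

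**Figure D3:**
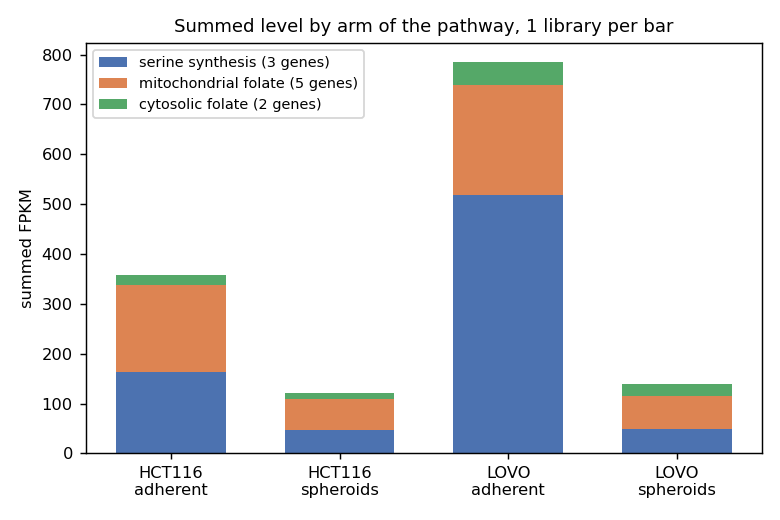
Summed FPKM of the enzymes of serine synthesis, of the mitochondrial folate cycle and of the cytosolic folate cycle in each library, as stacked bars that start at 0. The whole bar stands at 357 and 121 in adherent cells and spheroids of HCT116, and at 785 and 139 in those of LOVO.

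The isoenzyme shares differed between growth forms. SHMT2 made up 90.6% of the summed FPKM of SHMT1 and SHMT2 in adherent HCT116 and 84.8% in HCT116 spheroids. In LOVO the share was 88.8% in adherent cells and 77.2% in spheroids. In FPKM, MTHFD2 exceeded MTHFD2L 96.1 times in adherent HCT116 and 23.0 times in HCT116 spheroids, and 35.4 and 7.29 times in LOVO. SHMT2 and MTHFD2 were the more abundant mRNA of their pairs in all 4 libraries. In FPKM, MTHFD1L exceeded MTHFD1 in HCT116, with 61.9% and 59.1% of their sum in adherent cells and spheroids. In LOVO it did not, with 41.4% and 34.3%. In reads, MTHFD1 exceeded MTHFD1L in all 4 libraries, with 2211 against 1927 in adherent HCT116 and 1108 against 858 in HCT116 spheroids. The order in HCT116 thus depends on the lengths used, 9377 bases for MTHFD1 and 5021 for MTHFD1L. Within serine synthesis, PSAT1 made up 77.4% of the summed FPKM in adherent HCT116 and 64.6% in HCT116 spheroids. In LOVO it made up 78.0% in adherent cells and 80.0% in spheroids. In adherent HCT116, PSAT1 had 5616 reads and PHGDH 4330, at lengths of 2188 and 9217 bases.

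Genes around these enzymes were read from 7 lists, chosen like the members with earlier results of these data known. Over all genes compared, 53.4% were lower in HCT116 spheroids and 53.5% in LOVO spheroids. Of the 17 other folate enzymes and carriers, 14 were compared, and 7 were lower in HCT116 spheroids and 10 in LOVO spheroids, with medians of 0.00 and -0.39 on the log2(FPKM + 1) scale. TYMS, the thymidylate synthase, was lower by more than 1 in both lines, at -1.12 in HCT116 and -1.04 in LOVO. Differences above 1 were found for 1 gene of this list in HCT116 (2.19% of all genes) and 2 in LOVO (8.57%). GGH, which trims the glutamate tail of folates, stood at 1.06 in LOVO and 0.03 in HCT116. FOLR1, a folate receptor, had differences of opposite sign, at 1.06 in HCT116 and -1.51 in LOVO.

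The enzymes of purine synthesis, which take formyl groups from the cytosolic folate cycle, were lower throughout. Of 8 genes 7 were compared, and all 7 were lower in both lines. Of all genes compared, 53.4% were lower in HCT116 and 53.5% in LOVO, and the share lower in both was not counted. The median of the 7 genes was -0.66 for HCT116 and -0.73 for LOVO. PFAS in LOVO at -1.15 was the only value past -1, where 7.85% of all genes lay below -1. PAICS had the largest difference in HCT116 at -0.81, and ATIC the smallest at -0.12. PPAT, the first committed enzyme, had the smallest difference in LOVO at -0.37. In the glycine cleavage list 2 of 4 genes were compared, DLD at -0.20 and -1.03 and GCSH at -0.40 and -0.34 in HCT116 and LOVO. In the methionine cycle 6 of 8 genes were compared, with medians of -0.05 and -0.34, from AHCY at -0.61 and -1.31 to GNMT at 0.52 and 0.09.

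Of 17 genes that carry or use serine and glycine, 14 were compared and 10 were lower in each line. The share of all genes lower was 53.4% in HCT116 and 53.5% in LOVO. The median of the 14 genes was -0.08 for HCT116 and -0.43 for LOVO. SLC1A4, a carrier of serine and other neutral amino acids, had the lowest difference in both lines, at -1.05 and -2.52, with 3.10 and 0.978 FPKM in adherent cells and spheroids of HCT116 and 16.8 and 2.11 in those of LOVO. SLC6A9, a glycine transporter, stood at 1.64 and 1.52 FPKM in HCT116 and at 43.1 and 8.80 in LOVO, a difference of -2.17 in the latter. SFXN3, a mitochondrial carrier of the sideroflexin family, had the highest difference of the list in both lines, at 0.13 and 0.61. Of 6 glycolytic genes around 3-phosphoglycerate 5 were compared, with medians of -0.16 and -0.29. GAPDH was at -1.06 in HCT116 and -1.16 in LOVO, and the enolase ENO2 at 0.49 and 1.25.

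The list of 6 regulators also holds the stress response genes DDIT3 and TRIB3. Of the 6 listed genes, 6 were lower in HCT116 spheroids and 5 in LOVO spheroids, against 53.4% and 53.5% of all genes. The median of the 6 listed genes was -0.93 for HCT116 and -1.23 for LOVO. ATF4 mRNA stood at 291 FPKM in adherent HCT116, 149 in HCT116 spheroids, 287 in adherent LOVO and 129 in LOVO spheroids. DDIT3, which encodes CHOP, differed by -4.23 in HCT116 and -1.53 in LOVO, and TRIB3, a feedback inhibitor of ATF4, by -2.49 and -1.69. MYC, which also drives these enzymes in tumours, stood at 107 and 57.2 FPKM in HCT116 but at 75.0 and 74.6 in LOVO. NFE2L2, which encodes NRF2, differed by -0.63 and -1.32, and EIF2AK4, the kinase that senses uncharged tRNA, by -0.33 and 0.04.

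**Figure D4:**
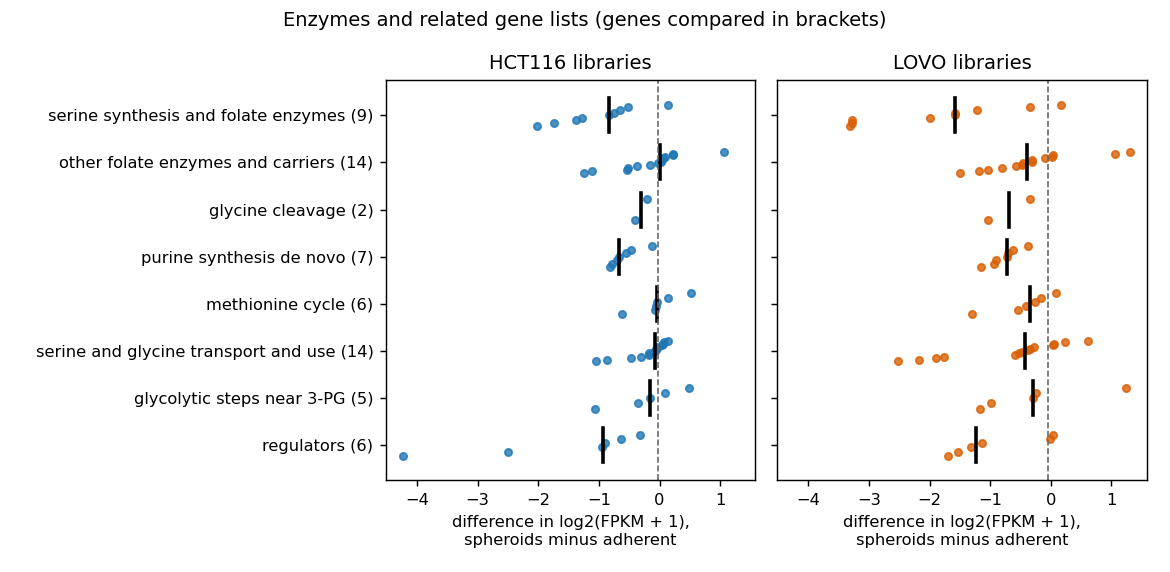
Difference in log2(FPKM + 1) between spheroids and adherent cells for the 9 enzymes compared and for the genes of 7 related lists, 1 point per gene, in HCT116 and LOVO. Thick bars mark the list medians and the dashed line the median of all 14429 genes compared. The enzymes have medians of -0.83 and -1.58, and the purine synthesis genes lie left of 0 in both panels.

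The genes whose pattern over the 4 libraries was most like the median of the members were sought by the Euclidean distance of log2(FPKM + 1) values centred on each gene's mean. The nearest 5 were SLC7A1, a carrier of cationic amino acids, at a distance of 0.191, EIF2S2, a subunit of the initiation factor eIF2, at 0.199, the chromatin factor SSRP1 at 0.238, EIF2S2P4 at 0.242 and TUFT1 at 0.263. EIF2S2P4 is a pseudogene named after EIF2S2, so that their reads may not be separate. Among the members, SHMT2 lay nearest to their median at 0.301 and MTHFD2L farthest at 1.66. SLC7A1 stood at 32.0 and 14.9 FPKM in adherent cells and spheroids of HCT116 and at 51.8 and 13.5 in those of LOVO.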

How the data were processed

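The 4 RNA-seq libraries cover each line and growth form with 1 library, and groups were taken from the sample titles. The authors deposited FPKM values per gene with gene length and coordinates. The aligner, the counting tool and its strand setting are not given in the sources used here. The submitters' processing notes name GRCm38 and mm10, mouse builds, but all 58735 identifiers and coordinates equalled those of GENCODE 29 on GRCh38. FPKM times gene length gave whole reads (within 0.001) for 100% of the values above 0, and 3 reads correspond to 0.147 to 0.179 FPKM for a gene of 1 kb. The library sizes behind the FPKM were 0.907 to 1.09 times the reads on genes.

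From the deposited FPKM, log2(FPKM + 1) was computed and the 14429 genes with a mean of at least 1 FPKM were compared, as spheroids minus adherent cells within a line. No p-value was computed, since each condition has 1 library and the members were chosen on these differences. A count model with the line as a block was not fitted. Reads served for exact 95% counting intervals, and the scripts were tested on simulated data. The members, the 7 lists and the thresholds were chosen with earlier results of these data known. Genes named outside the members were those of a list past 1 in both lines or past 2 in either, its extremes in each line, the regulators ATF4, MYC and NFE2L2, pseudogenes and overlapping genes of members, and the 5 nearest patterns. PECAM1, CDH5, CDH1, EPCAM, CDX2, VIL1, DCN and the keratins are from the marker lists. GGH was added after its values were seen. Alternatives were pseudocounts of 0.1 and 0.01, no filter, a mean of at least 5 FPKM, TPM, TMM-style scaling, centring on the median of all genes, protein-coding genes only and a threshold of 1. Protein sequences were not used here. Some genes of the related lists that meet the naming rule are not reported here. Python 3.11.15, numpy 2.4.6, pandas 2.3.3, scipy 1.17.1 and matplotlib 3.10.9 were used.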

Additional observations from a re-analysis of the deposited data

Results flagged for a closer look

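Of 63 members and list genes compared, 10 had differences of opposite sign in the 2 lines. The share of such genes over all genes compared was not counted, so this is a description only. For 3 of the 10 the counting interval of the ratio excluded 0 in both lines. FOLR1, a folate receptor, differed by 1.06 in HCT116 and -1.51 in LOVO on the log2(FPKM + 1) scale. AHCYL2, a relative of the hydrolase AHCY, differed by 0.15 and -0.16, and the glycolytic kinase PGK1 by 0.084 and -0.29. These differences between the lines could not be tested without replicate libraries.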

How the results depend on the processing

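Of 234 values of single members under the alternatives, 233 kept their sign. Only TPM, TMM-style scaling and centring could change a sign. A pseudocount cannot reverse a difference, and the filters leave a member's own value unchanged. The exception was MTHFD2 between adherent LOVO and HCT116 cells, at 0.04 with TPM. The median of the members in HCT116 was -1.05 with a mean of at least 5 FPKM. In LOVO it was -1.70 with a pseudocount of 0.1, -1.72 with 0.01, -1.79 with a mean of at least 5 FPKM and -1.45 with TMM-style scaling. With TMM-style scaling and with centring, 0 members were below -2 in HCT116 and 0 in both lines, and 3 in LOVO, as also with TPM. At a threshold of 1 the members counted were 4 for HCT116, 7 for LOVO and 4 shared, and no member was above 1. Of 112 medians of the related lists, 110 kept their sign, and the other folate enzymes and carriers in HCT116 came to -0.45 with a mean of at least 5 FPKM. Over all genes the median in LOVO moved from -0.06 to 0.10 with TPM. The labels give no replicate numbers. A count model with the line as a block would leave 1 residual degree of freedom over the 4 libraries and was not fitted, because the members were chosen on these same differences. No condition has a second library, so none could be left out. ALDH1L2, with 43 to 131 reads, is limited by depth.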
